A study of Mus musculus with 4 samples.

Results

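*Bcar1*, *Ptk2*, *Tns1*, *Vcl*, *Tln1*, *Pxn*, *Zyx*, *Ilk*, *Peak1* and *Abl2* encode adaptors and kinases of focal adhesions. They were chosen by name and not by their values, and they are 10 of the 48587 genes in the count table. All 10 passed the filter on low counts and so belong to the 18916 genes tested. The libraries are poly-A–enriched, strand-specific mRNA-seq of primary vascular smooth muscle cells (VSMCs), grown from the descending aorta of C57BL/6J mice that were 8 to 12 weeks old. Cells of the control group (shCTR) carried a lentivirus with a nontargeting hairpin directed at a plant microRNA sequence, and cells of the other group (shMettl14) carried a lentivirus with 1 hairpin against *Mettl14*, so both groups were transduced and neither was an untreated culture. *Mettl14* encodes a subunit of the complex that places the N6-methyladenosine (m6A) mark on mRNA. Each group has 2 libraries, named A and B, and nothing in the labels says whether the letters mark separate cultures, a shared culture or a batch, so that p-values measure only the spread between these libraries, which may be technical.

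Focal adhesions are the sites where integrins in the cell membrane hold the extracellular matrix on the outside and the ends of actin bundles on the inside. Talin binds the integrin tail and stretches under load. Vinculin ties talin to actin, and tensin links integrin tails to actin. Focal adhesion kinase with the scaffold p130Cas turns the load into tyrosine phosphorylation that steers migration, spreading and contraction. In the arterial media these sites carry wall tension to the contractile apparatus, and they are remodelled when smooth muscle cells leave the contractile state and migrate.

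The hairpin's target was checked first. *Mettl14* had 2050 and 2154 counts in shCTR A and B and 546 and 568 in shMettl14 A and B, a log2 fold change of −2.08, so that both shMettl14 libraries were below both shCTR libraries. Totals lay between 114343653 and 124815868 counts. For a gene with 0 counts, 3 counts is the 95% upper limit of the expected count, which is at most 0.0262 CPM (counts scaled to the library total). That limit covers counting error only. The CPM values that follow also use edgeR's TMM normalization factors. Smooth muscle markers were abundant, with *Acta2* at 2073 to 3547 CPM. Their summed level was 6799 and 5772 CPM in shCTR A and B and 4442 and 4811 in shMettl14 A and B. The fitted log2 fold change was below 0 for all 8 of 8, beside 9230 of all 18916 genes tested, but only 6 were lower within both letters (27.6% of all genes). Their median log2 ratio was −0.53 in A and −0.16 in B. Endothelial markers were also present, although the endothelium had been scraped off the aortas. Their summed level over 8 genes was 2041 and 4031 CPM in shCTR A and B and 1891 and 2528 in shMettl14 A and B, with *Cdh5* between 508 and 818 CPM. Striated muscle markers summed to 35.1 CPM in shCTR A and to between 12.1 and 19.4 in the others, with *Myh6* at 0 in all libraries but shCTR A. Leukocyte markers summed to 12.7 to 17.6 CPM and markers of adventitial fibroblasts to 403 to 646 CPM, and no leukocyte, endothelial or fibroblast marker was at 0 in every library. Of the markers tested, 7 of 8 endothelial, 7 of 7 striated muscle, 5 of 6 leukocyte and 3 of 7 fibroblast markers also had a fitted log2 fold change below 0. Fewer cells of a type and less RNA per cell cannot be told apart in bulk libraries, and the part of these cells in the values below was not tested.

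With the *Mettl14* hairpin, 4 of the 10 adhesion genes were lower (*Zyx*, *Bcar1*, *Ptk2* and *Tln1*) and 6 were higher (*Pxn*, *Peak1*, *Vcl*, *Abl2*, *Tns1* and *Ilk*), whereas 7 were lower when edgeR's RLE factors replaced its TMM normalization, since *Tns1*, *Abl2* and *Ilk* lay within 0.01 of 0. None of the 10 passed an adjusted p of 0.05 in the quasi-likelihood test of edgeR, with p-values adjusted by the Benjamini-Hochberg method over all genes (adjusted p = 1.0 for each), and in that test 0% of all genes passed. At an unadjusted p under 0.05 there were 0 of the 10, against 315 of the 18916 genes. *Mettl14* itself had an unadjusted p = 0.00039 in edgeR's test and did not pass the adjusted threshold. The test thus left a log2 fold change of −2.08 in the hairpin's own target uncalled. DESeq2's Wald test called 5 genes in all and 0 of the 10. Both of these fits left the letters out, and so do the standard errors and intervals below. With the letters as a block, edgeR called 9 genes and DESeq2 120, with 0 of the 10 in either. The fitted log2 fold changes of the 10 ran from −0.36 to 0.14 with a median of 0.0057, beside a median of 0.0094 over all genes tested. For a single gene taken alone, the smallest two-sided p of an exact permutation test with 2 libraries a group is 0.333, so single genes were read by the fit across all genes.

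**Figure D1:**
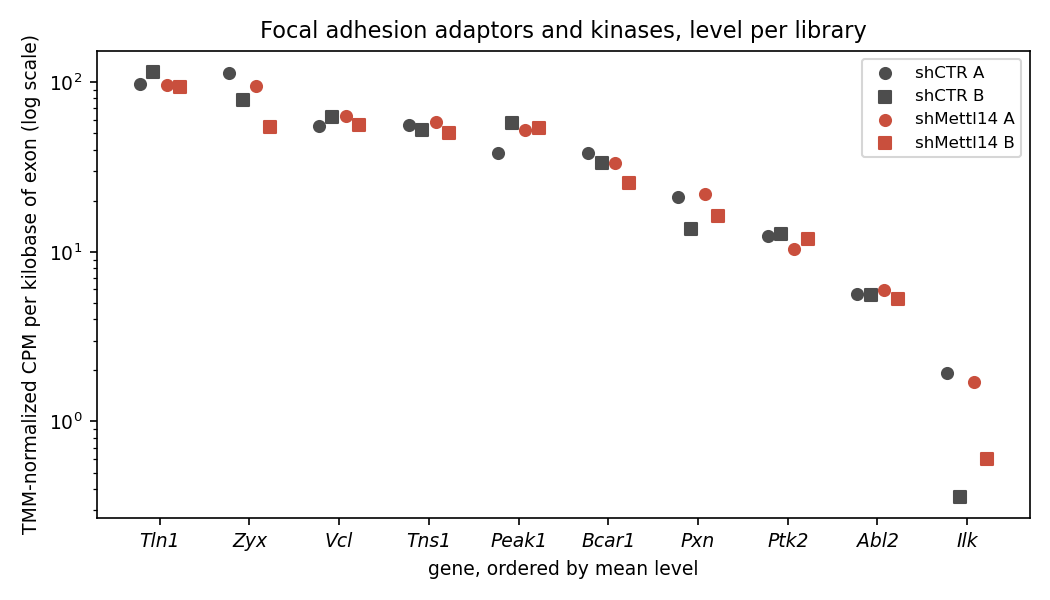
Level of each gene in each library, in TMM-normalized CPM per kilobase of exon on a logarithmic axis, with genes ordered by their mean (circles, letter A; squares, letter B; grey, shCTR; red, shMettl14). *Tln1* is highest with a mean of 100.4 and *Ilk* lowest with 1.15, and the spread over the libraries is widest for *Ilk*.

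Talin had the highest mean level of the set and integrin-linked kinase the lowest. On the scale of normalized CPM per kilobase of annotated exon, the mean over the 4 libraries was 100.4 for *Tln1*, 85.3 for *Zyx*, 59.1 for *Vcl*, 54.0 for *Tns1*, 50.2 for *Peak1*, 32.5 for *Bcar1*, 18.2 for *Pxn*, 11.9 for *Ptk2*, 5.59 for *Abl2* and 1.15 for *Ilk*. The tyrosine kinases *Ptk2* and *Abl2* thus came near the bottom. Neighbours in this order overlapped in their library values from *Tln1* down to *Peak1*, although every library of *Tln1* (93.4 to 114.6) was above every library of *Vcl* (54.9 to 63.0), *Tns1* (50.3 to 58.0) and *Peak1* (38.2 to 57.3). From *Peak1* down to *Ilk* the values of neighbouring genes did not overlap. The order compares genes by their exon length in GENCODE M21, a later release of the same genome build (GRCm38) than the Ensembl 86 annotation the authors counted with.

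Talin-1 (*Tln1*, ENSMUSG00000028465, minus strand of chromosome 4 from 43531519 to 43562691) is the rod that activates integrins and passes force to actin. Its normalized level was 952 and 1123 CPM in shCTR A and B and 946 and 916 CPM in shMettl14 A and B. Both shMettl14 libraries lay below both shCTR libraries, although shCTR A and shMettl14 A lay close together. The log2 fold change was −0.16 (standard error 0.19, 95% interval −0.65 to 0.34), and the log2 ratio was −0.0097 in letter A and −0.29 in letter B, a difference mostly in letter B. *Tln2*, the second talin gene, was at 62.3, 61.6, 77.5 and 62.5 CPM in shCTR A, shCTR B, shMettl14 A and shMettl14 B, with both shMettl14 libraries above both shCTR libraries and a log2 fold change of 0.18 (standard error 0.21).

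Vinculin (*Vcl*, ENSMUSG00000021823, plus strand of chromosome 14 from 20929398 to 21033676) is recruited to stretched talin and crosslinks it to actin. The levels of 450 and 511 CPM with shCTR and 516 and 458 CPM with shMettl14 (A and B in each) overlapped, with the lowest value in shCTR A and the highest in shMettl14 A, and the ratio was of opposite sign in the 2 letters (0.20 in A and −0.16 in B). Its log2 fold change was 0.02 (standard error 0.20, 95% interval −0.48 to 0.52). Exons of *Ap3m1* on the other strand cover 25.5% of the exon bases of *Vcl*. *Vcl* is a textbook target of serum response factor, which binds the CArG box, and its RefSeq promoter window of 300 bases (250 before the start and 50 after it, GRCm38.p6) was the only 1 among those of 8 of these genes that held a CArG box, a motif that 1.63% of all 32851 windows hold. The 250 bases before the start, chr14:20929148-20929397 on the plus strand, are shown for this motif, with the CArG box in capitals beginning 227 bases before the start.

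Vcl: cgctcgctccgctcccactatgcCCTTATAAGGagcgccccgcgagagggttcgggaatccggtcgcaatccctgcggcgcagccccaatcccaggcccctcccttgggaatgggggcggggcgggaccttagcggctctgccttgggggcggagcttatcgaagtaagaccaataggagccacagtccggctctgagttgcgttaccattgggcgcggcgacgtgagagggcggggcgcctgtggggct

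The same bases hold GGAATG, a TEAD motif, 143 bases before the start (in 14.7% of all windows on either strand), and 4 copies of the GC box GGGCGG, 2 of which overlap each other, which with its reverse complement CCGCCC is found in 35.7% of all windows and in those of 7 of the 8 genes. No window was at hand for *Ptk2* or *Pxn*. These are matches of letters and say nothing of binding.

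Tensin-1 (*Tns1*, ENSMUSG00000055322, minus strand of chromosome 1 from 73910231 to 74124449) links integrin tails to actin in the more central, matrix-bound adhesions. It had 892 and 834 CPM in shCTR A and B and 928 and 805 CPM in shMettl14 A and B, so that the shCTR values lay between the shMettl14 values. The log2 fold change was 0.0057 (standard error 0.19, 95% interval −0.49 to 0.50), a value whose sign turned with RLE factors (−0.0035). Of its relatives, *Tns3* had a log2 fold change of −0.029 (standard error 0.26) and *Tns2* a value of −0.47 (standard error 0.22; edgeR gave an unadjusted p = 0.089 and an adjusted p = 1.0). *Tns2* was at 127 and 151 CPM in shCTR A and B and at 111 and 88.7 in shMettl14 A and B, without overlap.

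Zyxin (*Zyx*, ENSMUSG00000029860, plus strand of chromosome 6 from 42349630 to 42360213) is a LIM domain protein that moves to strained actin fibres and brings in the actin assembly factor VASP. It had the lowest fitted fold change of the 10. Its level was 613 CPM in shCTR A, 422 in shCTR B, 511 in shMettl14 A and 293 in shMettl14 B, which is 517 ± 135 against 402 ± 154 CPM (SD, n = 2 libraries each), or 77.7% of the shCTR mean. Letter A was above letter B with both hairpins and shMettl14 below shCTR in both letters, but shMettl14 A lay above shCTR B, so the groups overlapped. The log2 fold change was −0.36 (standard error 0.35, 95% interval −1.27 to 0.55, unadjusted p = 0.35 from edgeR), with ratios of −0.26 in A and −0.53 in B. Without shMettl14 A it was −0.82, and without shMettl14 B it was −0.016. The 2 libraries of a group thus differed by more than the groups did.

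Among the 8 genes with a promoter window, only that of *Zyx* held an AP-1 motif (TGACTCA or its reverse complement TGAGTCA, in 5.20% of all windows). It begins 121 bases before the RefSeq start, within the GENCODE M21 limits of the gene but in no annotated exon of it. The 30 bases around it, chr6:42349696-42349725 on the plus strand of GRCm38.p6, are shown with the motif in capitals.

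Zyx: agtgcggacagTGAGTCAgttctccagcac

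Paxillin (*Pxn*, ENSMUSG00000029528, plus strand of chromosome 5 from 115506676 to 115555987) is the adaptor on which focal adhesion kinase, vinculin and Crk meet. Its level was 172 and 112 CPM in shCTR A and B and 180 and 133 CPM in shMettl14 A and B. It was the only gene of the 10 that was higher with shMettl14 within both letters (0.069 in A and 0.24 in B), a pattern that 30.0% of all tested genes had. The gap between the letters was larger, with B lower than A by 0.62 on the log2 scale with shCTR and by 0.44 with shMettl14. The log2 fold change of 0.14 (standard error 0.30, 95% interval −0.63 to 0.92) ran from −0.14 to 0.49 with 1 library left out, 0.49 being the value without shCTR A. *Tgfb1i1*, which encodes the paxillin relative Hic-5 and is expressed strongly in smooth muscle, is described with the LIM proteins.

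p130Cas (*Bcar1*, ENSMUSG00000031955, chromosome 8, minus strand, 111710474 to 111743809) is a scaffold whose substrate domain opens under stretch and is then phosphorylated. Its level was 173 CPM in shCTR A, 151 in shCTR B, 152 in shMettl14 A and 115 in shMettl14 B. The means were 162 ± 15.8 and 133 ± 26.0 CPM (SD, n = 2 libraries each), and shMettl14 was at 82.2% of shCTR. *Bcar1* was lower within both letters, by a ratio of −0.19 in A and −0.39 in B, but shMettl14 A (151.6) lay just above shCTR B (150.9). In the fit, the log2 fold change was −0.28 (standard error 0.23, 95% interval −0.88 to 0.31, unadjusted p = 0.27 from edgeR), and it stayed negative with each library left out, from −0.50 to −0.092. Its relative *Nedd9* had a log2 fold change of −0.13 (standard error 0.29).

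Focal adhesion kinase (*Ptk2*, ENSMUSG00000022607, chromosome 15, minus strand, 73205102 to 73423280) is the tyrosine kinase that autophosphorylates at new adhesions and recruits Src. *Ptk2* had 146 and 151 CPM in shCTR A and B and 122 and 141 CPM in shMettl14 A and B. Both shMettl14 libraries were below both shCTR libraries, and the ratios were −0.26 in A and −0.096 in B. *Ptk2* had a log2 fold change of −0.17 (standard error 0.19, 95% interval −0.67 to 0.33, unadjusted p = 0.41 from edgeR). *Ptk2b*, which encodes the related kinase Pyk2, was at 90.0 and 106 CPM in shCTR A and B and at 88.6 and 100.2 in shMettl14 A and B, a log2 fold change of −0.054 (standard error 0.20).

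*Peak1* (ENSMUSG00000074305, minus strand of chromosome 9 from 56201126 to 56418067) encodes a pseudokinase scaffold that works with Src and p130Cas. It had 471 CPM in shCTR A and 708, 641 and 659 CPM in shCTR B, shMettl14 A and shMettl14 B, so that shCTR A was the low library and the other 3 lay close together. Its log2 fold change was 0.14 (standard error 0.26, 95% interval −0.52 to 0.80), with ratios of 0.44 in A and −0.10 in B. Without shCTR A it was −0.12, and without shCTR B it was 0.46. Its relative *Prag1*, listed under the older symbol *D8Ertd82e*, had a log2 fold change of 0.18 (standard error 0.44).

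*Abl2* (ENSMUSG00000026596, plus strand of chromosome 1 from 156558786 to 156649568) encodes the tyrosine kinase Arg, which phosphorylates adhesion and actin regulators. With 60.7 and 59.8 CPM in shCTR A and B and 64.2 and 57.0 CPM in shMettl14 A and B it had the narrowest range of the 10, the highest library being 1.13 times the lowest. The log2 fold change was 0.0079 (standard error 0.19, 95% interval −0.48 to 0.50) and turned to −0.0013 with RLE factors. For *Abl1* it was 0.037 (standard error 0.19). Talins, tensins and Abl kinases have close relatives, and how the authors counted reads that fit several places is not given in the sources used here.

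**Figure D2:**
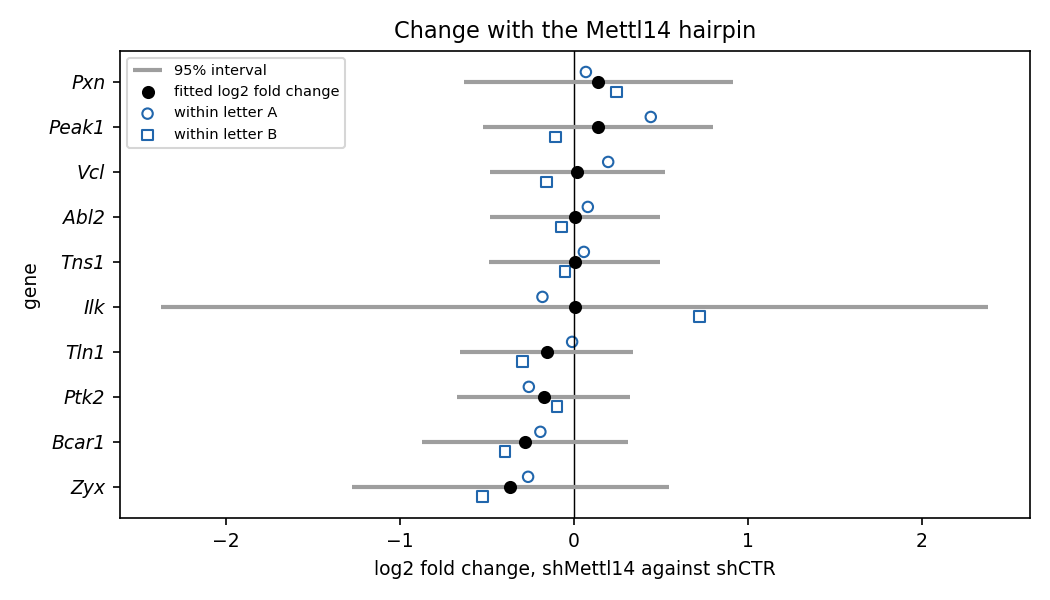
Fitted log2 fold change of each gene, shMettl14 against shCTR (black point), with its 95% interval (grey bar) and the log2 ratios within letter A (open circles) and letter B (open squares). Every interval spans 0, from *Zyx* (−0.36) to *Pxn* (0.14), and the interval of *Ilk* reaches from −2.37 to 2.38.

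*Ilk* (ENSMUSG00000030890, plus strand of chromosome 7 from 105736592 to 105742925) stood apart from the other 9. It encodes integrin-linked kinase, a pseudokinase that joins integrins to actin in a complex with PINCH (*Lims1*, *Lims2*) and parvin (*Parva*). Its counts were 604, 107, 557 and 214 in shCTR A, shCTR B, shMettl14 A and shMettl14 B, or 5.32, 0.991, 4.69 and 1.65 normalized CPM. Both libraries of letter A were thus above both of letter B, and the highest library had 5.37 times the level of the lowest. The log2 fold change of 0.0057 (standard error 0.92, 95% interval −2.37 to 2.38) had ratios of −0.18 in A and 0.72 in B and ran from −0.94 without shMettl14 A to 1.68 without shCTR A. Per kilobase of exon, *Ilk* was at 1.15 normalized CPM, whereas its partners were at 43.5 (*Parva*), 23.7 (*Lims1*) and 11.3 (*Lims2*). Their log2 fold changes were −0.066, 0.35 and −0.14.

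*Ilk* shares most of its exon bases with genes of the other strand. Of its 2744 exon bases, 89.7% lie under annotated exons of genes on the other strand, namely *Taf10* (2106 bases, 76.7%), which encodes a subunit of the TFIID complex, and *Rrp8* (355 bases, 12.9%), which leaves 283 bases that no other gene covers. Of the 1356 coding bases of its transcript ENSMUST00000163389.8, 93.4% lie within the last exon of 1 of the 4 *Taf10* transcripts, an exon of 3671 bases from 105739393 to 105743063. A stretch of 30 bases from the *Ilk* coding sequence, chr7:105741589-105741618 on the plus strand of GRCm38, is shown as an example of bases that both genes hold in opposite directions. Read in reverse complement it belongs to that *Taf10* exon, outside the coding part of *Taf10*.

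Ilk: acaccctaacgtgctcccagtgctaggtgc

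*Taf10* had 8486, 6604, 8301 and 3756 counts in shCTR A, shCTR B, shMettl14 A and shMettl14 B, many more than *Ilk*. If all counts of *Ilk* came from the 283 free bases, which was not checked, its level would be 11.2 normalized CPM per kilobase of those bases. Among protein-coding genes with over 75% of their exon bases under exons of the other strand, 84.3% of 89 were under 1 CPM, against 50.8% of 120 with over 50 to 75%, 35.2% of 526 with over 25 to 50%, 24.6% of 4385 with up to 25% and 49.4% of 16111 with none. Low counts were thus most frequent where nearly all of a gene lay under a gene of the other strand. *Ilk* itself had a mean of 3.16 CPM over the 4 libraries, so it was not among the genes under 1 CPM. The kit marked strand, but whether the counting used it is not given in the sources used here, and without strand reads of *Ilk* and *Taf10* cannot be told apart. Whether the overlap set the low count of *Ilk* was not tested, and its level and its fold change are given as uncertain.

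**Figure D3:**
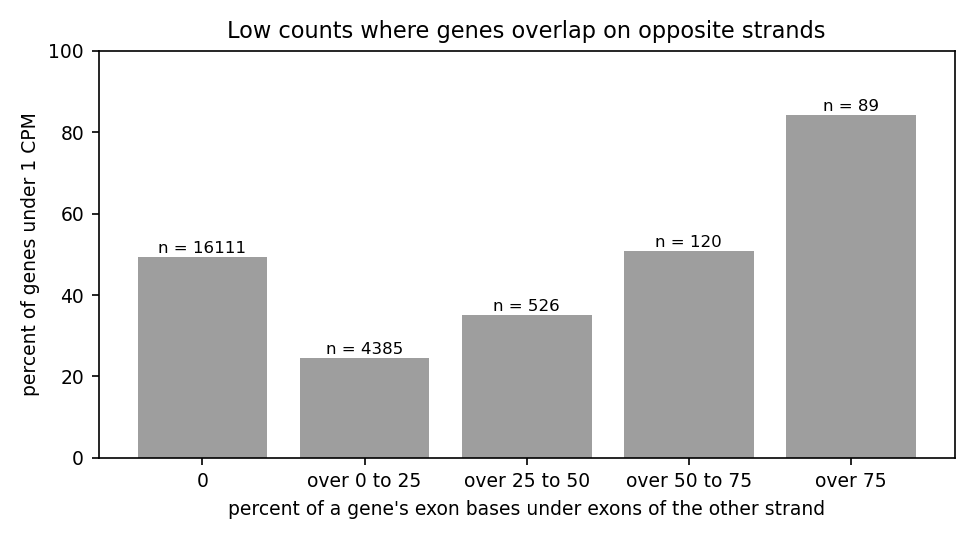
Percent of protein-coding genes under 1 normalized CPM (mean of 4 libraries), by the percent of their exon bases that lie under annotated exons of genes on the other strand, with the number of genes above each bar. The bar for over 75%, the class of *Ilk*, reaches 84.3%, and the others lie between 24.6% and 50.8%. *Ilk* itself, with a mean of 3.16 CPM, is not among the genes under 1 CPM.

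Read by letter, 4 of the 10 genes were lower with shMettl14 within both A and B (*Bcar1*, *Ptk2*, *Tln1* and *Zyx*), against 27.6% of all tested genes, and 1 was higher in both (*Pxn*), against 30.0%. Both shMettl14 libraries were below both shCTR libraries for 2 of the 10 (*Ptk2* and *Tln1*), where 13.3% of all genes had this order, and above them for 0 of the 10, where 14.7% of all genes did. Letter A gave a median log2 ratio of 0.024 over the 10 genes, and letter B a median of −0.10. These counts are of genes read in the same 4 libraries, and with 10 genes each differs from the background by at most 2 genes.

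The letters differed at least as much as the hairpins. For 7 of the 10 genes the mean difference between B and A was larger than that between the hairpins, and 56.3% of all tested genes had this pattern. The median absolute log2 difference of the 10 was 0.24 between the letters and 0.18 between the hairpins, beside 0.45 and 0.31 over all genes tested. *Zyx*, *Pxn* and *Ilk* differed more between the letters than the median gene did. With both hairpins, 6 of the 10 were lower in B than in A (*Zyx*, *Pxn*, *Bcar1*, *Tns1*, *Abl2* and *Ilk*; 36.6% of all genes) and 2 were higher in B (*Peak1* and *Ptk2*; 35.5% of all genes). *Zyx* was lower in B by 0.54 with shCTR and by 0.80 with shMettl14, and *Peak1* was higher in B by 0.59 and 0.04. The summed endothelial markers were also higher in B, at 4031 against 2041 CPM with shCTR and 2528 against 1891 CPM with shMettl14, but not as a whole list: with both hairpins 6 of the 8 were higher in B and 2 (*Tie1* and *Egfl7*) were lower. *Emcn* took most of the sum's difference, at 649 and 2100 CPM in shCTR A and B and 484 and 1077 CPM in shMettl14 A and B. The part of these cells in the differences between letters was not tested.

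**Figure D4:**
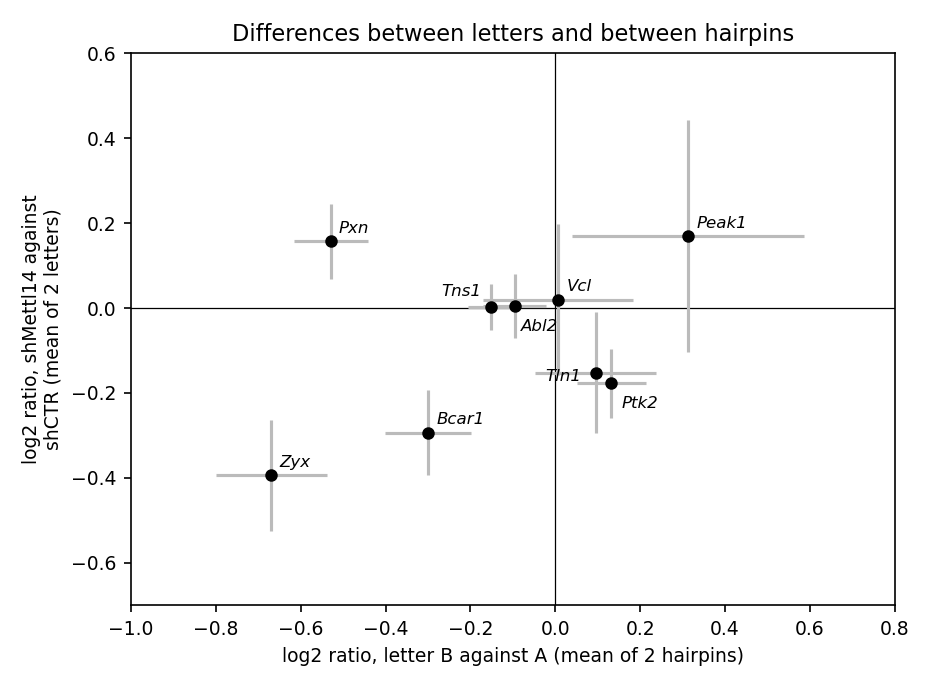
Log2 ratio of shMettl14 to shCTR (vertical axis, mean of the letters) against the log2 ratio of letter B to letter A (horizontal axis, mean of the hairpins) for 9 genes, with *Ilk* left out for its wider range; grey bars join the 2 values behind each mean. *Zyx*, *Pxn* and *Bcar1* lie far to the left, lower in B, and *Peak1* to the right, while *Tns1*, *Abl2* and *Vcl* sit close to the origin.

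Other proteins of focal adhesions were taken from 3 lists of 71 genes, of which 70 were tested (*Fermt1* was too low). None passed an adjusted p of 0.05 in edgeR's test. With shMettl14, 45 were lower and 25 higher, beside 9230 lower and 9686 higher of all 18916 genes tested. Their median log2 fold change was −0.062 (−0.030 in A and −0.12 in B), beside 0.0094 over all genes. Within both letters 30 were lower, a pattern of 27.6% of all genes, and 14 were higher, a pattern of 30.0%. Both shMettl14 libraries lay below both shCTR libraries for 13 (13.3% of all genes) and above them for 6 (14.7% of all genes). The only genes with an unadjusted p under 0.05 were *Pdlim1* and *Tgfb1i1*, both lower.

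Linkers between integrins and actin numbered 21 tested genes, with a median of −0.096. Of these, 15 were lower and 6 higher, beside 9230 lower and 9686 higher of all 18916 genes tested. *Rsu1*, a partner of PINCH, had a log2 fold change of −0.47 (standard error 0.31), and *Lims1* had the highest value among genes of at least 10 CPM, 0.35 (standard error 0.19). *Lims1* was at 108 and 95.1 CPM in shCTR A and B and at 125.3 and 134.0 in shMettl14 A and B, without overlap.

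LIM and actin assembly proteins had the lowest median of the 3 lists, −0.26. Of the 15, 10 were lower, beside 9230 of all 18916 genes tested, and 9 were lower within both letters (27.6% of all genes). *Pdlim1*, a PDZ and LIM protein that binds alpha-actinin on stress fibres (ENSMUSG00000055044, chromosome 19, minus strand, 40221173 to 40271842), had 201 and 234 CPM in shCTR A and B and 104 and 130 in shMettl14 A and B. The groups did not overlap, and the log2 fold change was −0.90 (standard error 0.22, 95% interval −1.47 to −0.33, unadjusted p = 0.0097 and adjusted p = 1.0 from edgeR). *Tgfb1i1* (ENSMUSG00000030782, chromosome 7, plus strand, 128246812 to 128255699) had 205 and 206 CPM in shCTR A and B and 147 and 126 in shMettl14 A and B, again without overlap, with a log2 fold change of −0.59 (standard error 0.20, 95% interval −1.09 to −0.09, unadjusted p = 0.029 and adjusted p = 1.0 from edgeR). Its relative *Pxn* differed by 0.14, and the difference between the 2 paralogs was not tested. Of the smooth muscle markers, 6 of 8 were lower within both letters (27.6% of all genes), and *Acta2* had a fitted change of −0.58 on the log2 scale (unadjusted p = 0.038 and adjusted p = 1.0 from edgeR). The part of these markers in the values of *Pdlim1* and *Tgfb1i1* was not tested. At the other end, *Vasp*, the actin assembly factor that zyxin brings in, had 0.27 (standard error 0.60), with shCTR B at 49.98 CPM against 117 to 174 in the other 3 and a value of −0.37 without shCTR B, and *Limd1* had 0.18 (standard error 0.24).

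Signalling kinases, phosphatases and adaptors of adhesions numbered 34, with a median of −0.032. Of these, 20 were lower and 14 higher, beside 9230 lower and 9686 higher of all 18916 genes tested. *Sh3kbp1*, an adaptor of receptor endocytosis, had 51.9 and 44.8 CPM in shCTR A and B and 39.6 and 29.1 in shMettl14 A and B, a log2 fold change of −0.49 (standard error 0.24). *Git2*, a scaffold that binds paxillin, followed with −0.44 (standard error 0.27). The highest values were those of *Crk*, the adaptor that binds phosphorylated p130Cas and paxillin, with 0.35 (standard error 0.20), and of the Src family kinase *Yes1* with 0.31 (standard error 0.22). *Crk* was at 192 and 158 CPM in shCTR A and B and at 220 and 226 in shMettl14 A and B, without overlap. Of the integrin subunits that these proteins serve, 10 of 15 were lower (median −0.082, range −0.51 to 1.03), beside 9230 of all 18916 genes. None of them passed the adjusted threshold in edgeR's test. Both shMettl14 libraries lay below both shCTR libraries for 1 of the 15 (13.3% of all genes) and above them for 2 (14.7% of all genes).

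**Figure D5:**
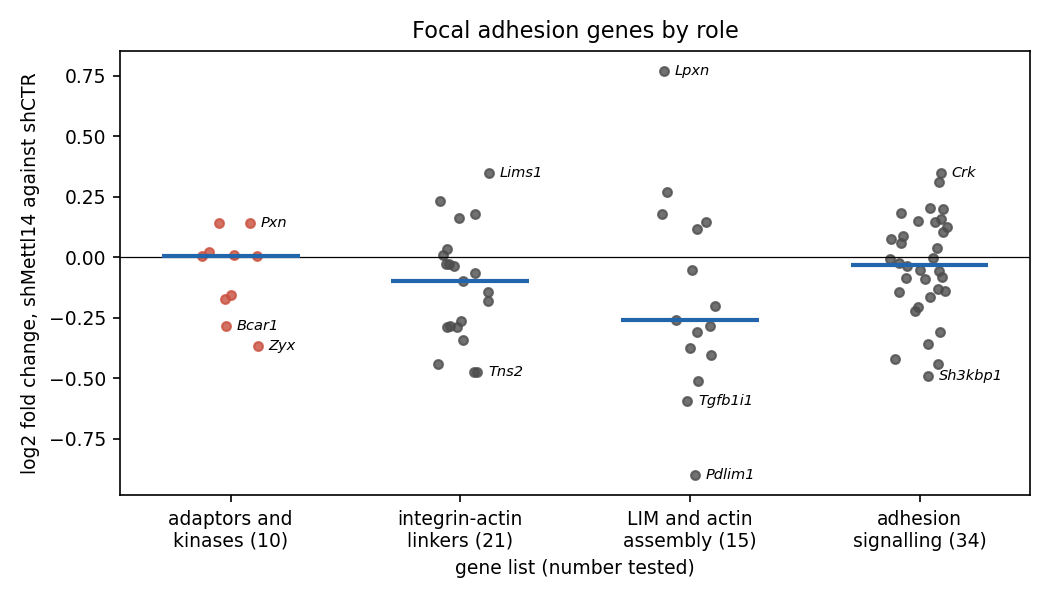
Log2 fold change, shMettl14 against shCTR, of the 10 adaptors and kinases (red) and of the other adhesion genes by role (grey), 1 point per gene, with the median of each list as a blue bar. The medians are 0.0057, −0.096, −0.26 and −0.032 from left to right, and *Pdlim1* lies lowest at −0.90; *Lpxn*, the highest point, had a mean of 0.562 CPM.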

How the data were processed

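The authors made poly-A–enriched, strand-specific libraries from primary mouse VSMCs, aligned the read pairs to mm10 (GRCm38, Ensembl 86) by STAR, and obtained gene counts by featureCounts; versions, the strand setting and the treatment of reads that fit several places are not given in the sources used here. The deposited values are raw counts of 48587 gene symbols in 4 columns, with 114343653 to 124815868 counts each. Counts were fitted with edgeR 4.0.16 in R 4.3.3 (TMM, filterByExpr, robust quasi-likelihood test, group only) over 18916 genes, and p-values were adjusted by the Benjamini-Hochberg method over all of them. Each standard error is the size of the log2 fold change over the root of its F statistic. Ratios within a letter are log2 CPM differences with a prior count of 2. The 2 libraries of a group were not 1 library deposited again: chi-square per degree of freedom was 577 for shCTR and 288 for shMettl14.

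Alternatives were DESeq2 1.42.0, RLE and upper-quartile factors, no filter on low counts, a filter of 10 or more counts in each library, the letter as a block with either tool, and each library left out. Gene places, overlaps and exon lengths came from GENCODE M21, and promoter windows from RefSeq (GRCm38.p6; 8 of the 10 genes matched). The genes, lists and motifs were chosen with earlier results of these data known. Beside the 10 genes, the text names *Mettl14*, the 2 highest and 2 lowest genes of each adhesion list with a mean of at least 10 CPM, any listed gene called in any fit, near relatives of the 10, and cell type markers; *Parva*, *Lims2*, *Fermt1*, *Lpxn*, *Taf10*, *Rrp8*, *Ap3m1* and the genes called outside these lists were named after their values were seen. Results of 1 gene and 1 list are not reported here. The fits were also run on simulated counts, with a smaller dispersion than these data have and larger changes than those of the 10 genes. That run therefore does not show how the fits perform for these genes.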

Additional observations from a re-analysis of the deposited data

How the results depend on the processing

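Across all 18916 genes tested, edgeR called 0 at an adjusted p under 0.05 with TMM (315 at an unadjusted p under 0.05), RLE (317) and upper-quartile factors (302). It also called 0 without a filter (471 of 29127 genes at the unadjusted threshold) and with the stricter filter (316 of 16236). The count was 5 of 29127 with DESeq2 (*Mettl14*, *Atp6v1a*, *Cbfb*, *Chst12* and *Myh6*). With a replicate block it was 9 of 18916 in edgeR and 120 of 29127 (91 lower) in DESeq2. No fit called any of the 10 adaptors and kinases. The letters as a replicate block lowered the common dispersion from 0.178 to 0.0418, and deviations of same-letter libraries had a correlation of 0.578. In edgeR the block also lowered the standard error of each of the 10 genes, from 0.92 to 0.295 for *Ilk* and from 0.30 to 0.16 for *Pxn*. The intervals given above without it thus include the spread between the letters. With 2 pairs and letters of unstated meaning, the block is only an alternative. With the block *Zyx* was at −0.39 (standard error 0.16, unadjusted p = 0.033, adjusted p = 0.45 from edgeR, lowest 0.37 from DESeq2 with the block), and *Ilk* at 0.25. *Zyx* was the only gene of the 10 under an unadjusted 0.05 in any fit, namely in the 2 fits with the block. Of all genes, 1941 of 18916 were under it with edgeR and the block, and 1478 of 29127 with DESeq2 and the block. *Mettl14* had an adjusted p of 0.0039 with the block. Of the other adhesion genes, 1 was called, *Pdlim1* by DESeq2 with a replicate block (adjusted p = 0.00024; 0.11 in edgeR with the block). The number of the 10 that were lower was 7 with RLE factors and 4 to 9 with 1 library left out (8 without shCTR B, 9 without shMettl14 A), and their median then ran from −0.098 to 0.10. Of 110 alternative values of the 10 genes, 16 changed sign: *Tns1* (−0.0035 with RLE, −0.0023 with DESeq2 and a replicate block), *Ilk* (−0.0021 and, with DESeq2, −0.0035), *Abl2* (−0.0013 with RLE), and with 1 library left out *Tns1* (−0.099 to 0.11), *Vcl* (−0.066 to 0.11), *Pxn* (−0.14 to 0.49), *Ilk* (−0.94 to 1.68), *Peak1* (−0.12 to 0.46) and *Abl2* (−0.079 to 0.095). *Bcar1*, *Ptk2*, *Tln1* and *Zyx* stayed lower in all 4 such fits. The named others that turned were *Limd1* (−0.031 to 0.42), *Vasp* (−0.37 to 1.44), *Abl1* (−0.021 to 0.098), *Ptk2b* (−0.16 to 0.065), *Tns3* (−0.26 to 0.25), *Nedd9* (−0.48 to 0.15) and *Prag1* (−0.45 to 0.62). In an alternative chosen after seeing the data, levels per kilobase of bases no other gene covers were 79.3 for *Vcl* and 11.2 for *Ilk*. The cause of these changes was not tested. Each of the 10 genes had at least 107 counts in each library.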
